A study of Mus musculus with 5 samples.

Results

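The transcription factor genes of naive and memory T cells Tcf7, Lef1, Bach2, Bcl6, Id3, Foxo1, Tox, Gata3, Satb1 and Bcl11b, 10 in all, were examined for Runx3-bound and H3K4me1-marked regions in IL-2-activated CD8-TC (CD8+ T cells). A region was counted for a gene when it overlapped by at least 1 bp the gene body in the GENCODE vM1 annotation of mm9, extended by 50 kb on each side. This window held 52 of the 9135 Runx3-bound regions and 105 of the 18992 H3K4me1-marked regions, that is 157 of 28127 regions in all. Cells came from spleens of ICR mice, an outbred stock, and were selected on anti-CD8 magnetic beads, TCR-activated for 2 days with anti-CD3e and anti-CD28, and cultured for 4 more days with 100 u/ml recombinant human IL-2. ChIP-seq comprised 2 libraries with an in-house polyclonal anti-Runx3 antibody, 2 control libraries with non-immune rabbit serum (NIS) and 1 library with a monoclonal anti-H3K4me1 antibody, although the protocol speaks of 2 experiments for each antibody. All libraries came from the same kind of culture, without cells lacking Runx3 and without resting cells. The reads of the repeats were joined and regions were called once per antibody, so no value below has a replicate error. The lists give positions but neither read numbers nor scores, so depth per region is not known. The 95% Wilson intervals given cover counting error among regions only. A called region does not tell in what share of the cells the site was occupied, nor whether the gene was expressed.

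Runx3 is a transcription factor of the RUNX family that is expressed in cytotoxic T cells, and H3K4me1 is a histone mark abundant at enhancers. The factors encoded by the 10 genes act in naive and memory T cells, where many of them maintain a quiescent or stem-like state, and several are down-regulated when CD8-TC become effector cells. Tcf7 and Lef1 encode HMG-box partners of beta-catenin, Bach2 and Bcl6 encode repressors, Id3 encodes an inhibitor of E proteins, and Foxo1 encodes a forkhead factor that controls homing and survival genes. Tox, Gata3, Satb1 and Bcl11b encode factors of T cell development.

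The sequences at the centre of bound regions are given first, as 200 bp of the plus strand of mm9. The capitals mark RUNX words, which were TGTGGT and TGTGGC, as well as TGCGGT and TGCGGC, on either strand, so that on the printed strand they may also read ACCACA or GCCACA, and ACCGCA or GCCGCA. For 4 genes the region nearest to the gene start is shown because it lay in the gene body or within 10 kb of it. At Bcl6, Tox and Satb1 that window held transcribed exon sequence and is not shown.
Lef1, 1.84 kb downstream of the start, chr3:130815125-130815324: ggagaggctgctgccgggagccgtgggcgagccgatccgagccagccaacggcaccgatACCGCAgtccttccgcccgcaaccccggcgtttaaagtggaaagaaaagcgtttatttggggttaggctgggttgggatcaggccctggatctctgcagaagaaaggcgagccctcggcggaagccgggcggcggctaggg
Bach2, 10.6 kb downstream of the start, chr4:32336253-32336452: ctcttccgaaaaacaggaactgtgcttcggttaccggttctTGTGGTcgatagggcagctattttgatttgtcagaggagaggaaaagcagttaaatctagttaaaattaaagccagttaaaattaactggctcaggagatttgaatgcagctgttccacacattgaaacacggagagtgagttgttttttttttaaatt
Id3, 4.38 kb downstream of the start, chr4:135703692-135703891: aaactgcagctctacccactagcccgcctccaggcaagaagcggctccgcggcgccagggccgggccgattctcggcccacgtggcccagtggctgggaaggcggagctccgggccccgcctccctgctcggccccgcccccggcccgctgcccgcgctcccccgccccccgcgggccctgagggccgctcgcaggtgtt
Bcl11b, 0.590 kb upstream of the start, chr12:109242303-109242502: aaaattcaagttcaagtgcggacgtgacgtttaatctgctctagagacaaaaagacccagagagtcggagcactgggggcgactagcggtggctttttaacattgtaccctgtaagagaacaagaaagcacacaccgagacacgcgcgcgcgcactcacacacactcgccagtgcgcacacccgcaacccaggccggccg
The windows of Lef1 and Bach2 held 1 RUNX word each, and those of Id3 and Bcl11b held 0. The Id3 window was the richest in G and C of those printed, with a GC content of 78% and 23 CpG.

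A further 5 sequences were chosen after their values were seen. The first 2 are the centres of the widest Runx3-bound regions whose nearest protein-coding start was that of Tcf7 or Foxo1, genes whose region nearest to the start lay outside the body by more than 10 kb. The other 3 are the centres with 4 or more RUNX words.
Tcf7, 31.1 kb upstream of the start, chr11:52127673-52127872: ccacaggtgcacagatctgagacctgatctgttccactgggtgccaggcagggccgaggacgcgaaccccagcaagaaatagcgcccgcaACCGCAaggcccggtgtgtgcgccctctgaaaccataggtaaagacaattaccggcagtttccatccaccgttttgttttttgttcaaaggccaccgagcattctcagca
Foxo1, 75.5 kb downstream of the start, chr3:52147676-52147875: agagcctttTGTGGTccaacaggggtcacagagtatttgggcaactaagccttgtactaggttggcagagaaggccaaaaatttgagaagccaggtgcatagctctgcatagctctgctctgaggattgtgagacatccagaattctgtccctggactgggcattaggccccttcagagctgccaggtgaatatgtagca
Tcf7, 35.4 kb upstream of the start, chr11:52131945-52132144: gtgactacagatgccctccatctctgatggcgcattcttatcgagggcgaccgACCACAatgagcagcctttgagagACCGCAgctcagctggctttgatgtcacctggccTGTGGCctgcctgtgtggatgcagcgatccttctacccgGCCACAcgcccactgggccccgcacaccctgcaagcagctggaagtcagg
Lef1, 47.2 kb downstream of the start, chr3:130860474-130860673: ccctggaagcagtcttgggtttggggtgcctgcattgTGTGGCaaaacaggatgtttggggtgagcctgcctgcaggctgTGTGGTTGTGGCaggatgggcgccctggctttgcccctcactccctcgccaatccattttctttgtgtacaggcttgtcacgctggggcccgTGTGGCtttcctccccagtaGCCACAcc
Bcl11b, 38.8 kb downstream of the start, chr12:109202884-109203083: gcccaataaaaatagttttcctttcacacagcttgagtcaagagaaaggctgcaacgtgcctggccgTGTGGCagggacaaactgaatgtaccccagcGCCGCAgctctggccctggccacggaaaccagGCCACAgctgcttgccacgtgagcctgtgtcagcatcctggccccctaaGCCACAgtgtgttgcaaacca
The Lef1 window held 5 RUNX words, the most of all 52 regions, of which 4 were of the form TGTGGC and 2 lay side by side. The second Tcf7 window and the second Bcl11b window held 4 each. The Bcl11b window also held 1 AP-1 word, and the second Tcf7 window 1 TCF/LEF word.

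Of the 10 genes, 9 had a Runx3-bound region in their window, against 47.9% of the 22350 protein-coding genes. All 10 had an H3K4me1-marked region, against 52.3% of protein-coding genes, and 8 had a Runx3-bound region that overlapped H3K4me1, against 28.0%. The exceptions were Gata3, with 0 Runx3-bound regions, and Bcl6, whose only Runx3-bound region was unmarked. The windows of the 10 genes were longer than most, with a median of 187 kb against 115 kb over all protein-coding genes, so counts were also expressed per length. The number of Runx3-bound regions per 100 kb of window had a median of 2.28 at the 10 genes (range 0 to 4.89), while over all protein-coding genes the median was 0 and the mean 0.775. The share of the window covered by H3K4me1-marked regions had a median of 10.3% (range 1.62% to 26.4%), against a median of 0.656% and a mean of 2.61% over all protein-coding genes.

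**Figure D1:**
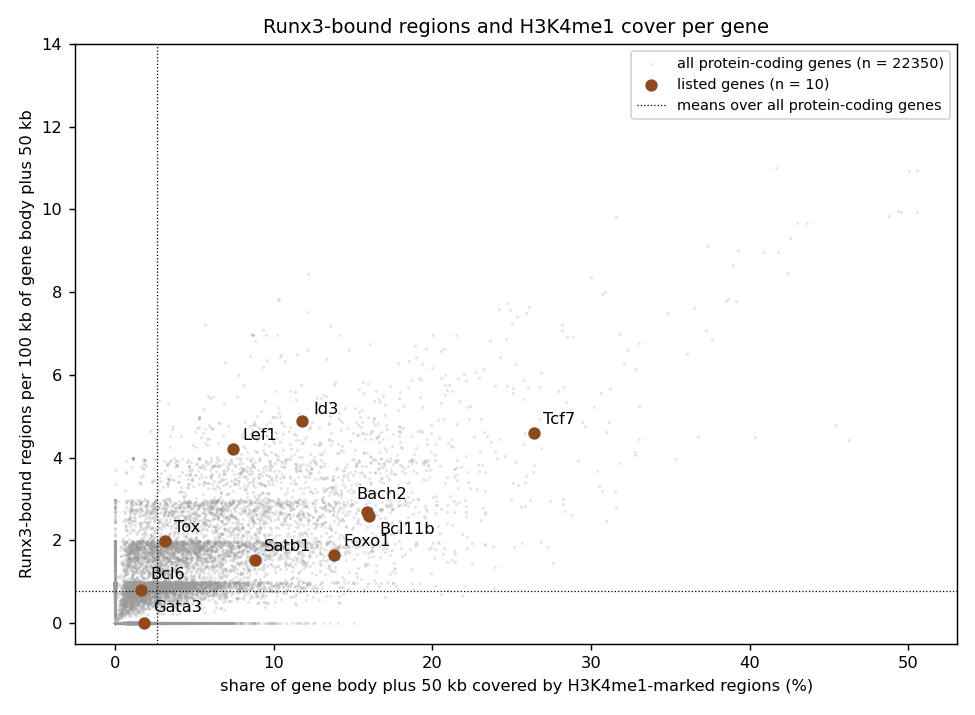
Each point is a protein-coding gene, with the share of its body plus 50 kb on each side covered by H3K4me1-marked regions (%) on the x axis and the number of Runx3-bound regions per 100 kb of that window on the y axis; brown points are the 10 genes, and dotted lines are means over all 22350 genes. Of the 10 genes Tcf7 lies farthest right at 26.4%, Id3, Tcf7 and Lef1 lie above 4 regions per 100 kb, and Gata3 lies at 0.

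The 10 genes differed widely among themselves in both measures. Id3 had the highest density of Runx3-bound regions, with 4.89 per 100 kb, a value higher than that of 99.1% of protein-coding genes. Tcf7 followed with 4.59 and Lef1 with 4.21, above 98.7% and 98.3% of genes. These densities count every region of the window. Id3 had the nearest protein-coding start for only 2 of its 5 regions, Tcf7 for 4 of its 6 and Lef1 for 6 of its 9. Bach2 had 2.68, Bcl11b 2.59, Tox 1.97, Foxo1 1.65 and Satb1 1.52. These 5 genes lay above 92.3%, 91.6%, 88.3%, 81.0% and 79.3% of protein-coding genes. Bcl6 had 0.808, above 62.1% of genes. The order by H3K4me1 cover was different. Tcf7 led with 26.4%, followed by Bcl11b with 16.0%, Bach2 with 15.9%, Foxo1 with 13.8% and Id3 with 11.8%. Cover, too, counts every region of the window. That of Id3 includes marked regions of 2820, 1373 and 2351 bp in introns of the neighbouring gene E2f2. Satb1 had 8.79%, Lef1 7.46% and Tox 3.11%. Gata3 with 1.84% and Bcl6 with 1.62% were lowest and lay below the mean of all genes. Their cover was still above that of 63.7% and 61.7% of protein-coding genes. With 1 list per antibody, no test between neighbours in these orders was possible.

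Tcf7 encodes TCF-1, the HMG-box factor of naive, memory and stem-like CD8-TC. The gene (ENSMUSG00000000782.8, chr11:52065873-52096681, minus strand) had 6 Runx3-bound regions in its window, of which 4 overlapped H3K4me1, and 15 H3K4me1-marked regions that added up to 34.7 kb. Of the 15 H3K4me1-marked regions, 10 were centred upstream of the gene and formed a series that reached from 10.9 to 49.5 kb before the start. Within this upstream stretch lay 3 intergenic Runx3-bound regions, 16.7, 31.1 and 35.4 kb from the start, all marked. The widest of the 3, at chr11:52127351-52128194, was 844 bp long. It spanned the 544 bp gap between an H3K4me1-marked region of 1278 bp and another of 1399 bp and touched both. The remaining marked Runx3-bound region lay in an intron, 17.4 kb downstream of the start at chr11:52079089-52079511. At the start itself, 0 Runx3-bound regions were called within 1 kb. The widest H3K4me1-marked region, 4995 bp at chr11:52074078-52079072, overlapped a coding exon of Tcf7 and held no Runx3-bound region. The 2 unmarked Runx3-bound regions lay 51.0 and 51.5 kb downstream, at the start of Skp1a, a subunit gene of SCF ubiquitin ligases. Hence the 4 marked regions were the 4 for which Tcf7 had the nearest protein-coding start.

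Lef1 encodes the HMG-box factor most closely related to TCF-1. The gene (ENSMUSG00000027985.8, chr3:130813389-130927274, plus strand) had 9 Runx3-bound regions, of which 8 lay in introns and 1 lay 45.3 kb upstream. The region nearest to the gene start, 1.84 kb downstream at chr3:130814867-130815581, was unmarked and was centred 491 bp from the start of another Lef1 transcript. Of the 9 regions 5 overlapped H3K4me1, at 45.3 kb upstream and at 7.47, 43.6, 46.1 and 47.2 kb downstream of the start. The last 3 of these formed a tight group that included the window with 5 RUNX words. Deeper in the gene, 3 Runx3-bound regions at 89.6, 97.5 and 98.3 kb were unmarked. The widest Runx3-bound region of the window, 880 bp at chr3:130911250-130912129, was among these. It was 17114 bp from the nearest H3K4me1-marked region. Each of the 9 regions had another Runx3-bound region centred within 10 kb. The window held 8 H3K4me1-marked regions, 5 of them with Runx3. The widest, 4362 bp at chr3:130839277-130843638, was intronic and held none.

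Bach2 encodes a repressor that restrains effector differentiation and competes with AP-1 factors for their sites. The gene (ENSMUSG00000040270.9, chr4:32325779-32673083, plus strand) is the longest of the 10 and had the most regions of both lists, 12 Runx3-bound and 33 H3K4me1-marked. Of the 33 marked regions 32 were centred in the gene body. Together the 33 added up to 71.0 kb, and 10 held Runx3. Of the 12 Runx3-bound regions 10 were intronic. They lay between 10.6 and 186 kb downstream of the start, and 8 of the 12 overlapped H3K4me1. The 2 regions nearest to the start, at 10.6 kb (chr4:32336051-32336654) and 11.9 kb (chr4:32337086-32338353), were unmarked. The second of them was the widest Runx3-bound region of the window, at 1268 bp. The regions at 19.6 and 105 kb each touched 2 H3K4me1-marked regions, across gaps of 382 and 69 bp. The widest H3K4me1-marked region, 7503 bp at chr4:32374335-32381837, held 1 Runx3-bound region. An unmarked region, 376 kb downstream of the Bach2 start, lay at the start of Casp8ap2. Another protein-coding gene, D130062J21Rik, is annotated inside Bach2, and Bach2 was the nearest protein-coding start for 0 of the 12 regions although 10 lay in its introns.

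Bcl6 encodes the zinc finger repressor of follicular helper T cells and a factor of memory CD8-TC. The gene (ENSMUSG00000022508.5, chr16:23965138-23988938, minus strand) had 1 Runx3-bound region, 568 bp at chr16:23988492-23989059, centred 0.163 kb downstream of the start over a UTR or non-coding exon. The region was unmarked and contained no RUNX word in its whole length. The only H3K4me1-marked region of the window, 2005 bp at chr16:23990166-23992170, was centred 2.23 kb upstream of the start, 1107 bp from the Runx3-bound region. The next nearest Runx3-bound region lay 144 kb from the start.

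Id3 encodes an inhibitor of E proteins that is associated with memory precursors. The gene (ENSMUSG00000007872.3, chr4:135699412-135701670, plus strand) is only 2.26 kb long. It had 5 Runx3-bound regions, all outside the gene body and all overlapping H3K4me1, the only gene of the 10 with Runx3-bound regions and 0 unmarked ones. Of these 1 lay 42.9 kb upstream and 1 lay 4.38 kb downstream of the start, at chr4:135703375-135704207. These 2 were nearest to Id3. The others, at 31.6, 34.7 and 46.6 kb, lay in the neighbouring gene E2f2, which encodes a cell cycle transcription factor. The region at 34.7 kb, chr4:135733170-135734990, was the widest of all 52, at 1821 bp. It covered a coding exon of E2f2 and crossed a gap of 795 bp between 2 H3K4me1-marked regions, of 2820 and 1373 bp. The larger of them, at chr4:135730920-135733739, was the widest H3K4me1-marked region of the window and held 2 Runx3-bound regions. Of the 6 H3K4me1-marked regions 5 held Runx3.

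Foxo1 encodes a forkhead factor that drives Il7r and Klf2 in naive T cells. The gene (ENSMUSG00000044167.5, chr3:52072259-52154031, plus strand) had 3 Runx3-bound regions and no other protein-coding gene in its window. The nearest to the start, 24.6 kb upstream at chr3:52047581-52047825, was unmarked and at 245 bp the narrowest of all 52. The widest, 880 bp at chr3:52147336-52148215, lay in an intron 75.5 kb downstream and was marked. The third, 128 kb downstream, touched 2 H3K4me1-marked regions across a gap of 134 bp. The window held 10 H3K4me1-marked regions that added up to 26.3 kb, of which 3 held Runx3. The widest of these 10, 6308 bp at chr3:52099054-52105361, was intronic and held none.

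Tox encodes an HMG-box factor of T cell development and of exhausted T cells. The gene (ENSMUSG00000041272.5, chr4:6613500-6918704, minus strand) had 8 Runx3-bound regions, 7 of them in the gene body. The region nearest to the start, at chr4:6917570-6917955, was centred 0.942 kb downstream, overlapped a coding exon and lay 39.3 kb from the nearest H3K4me1-marked region, the largest such distance among the 52. The region 21.0 kb downstream was unmarked too and contained no RUNX word. The other 6 were marked. They lay at 41.1, 56.5, 57.3, 66.6, 89.3 and 309 kb. The regions at 56.5 and 57.3 kb shared 1 H3K4me1-marked region of 3451 bp, chr4:6860421-6863871, the widest of the window. The widest Runx3-bound region, 707 bp at chr4:6851761-6852467, was the one at 66.6 kb. Of the 8 H3K4me1-marked regions 6 held Runx3, while 3.11% of the window was marked.

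Gata3 encodes a zinc finger factor of T cell development and of T helper type 2 cells. The gene (ENSMUSG00000015619.9, chr2:9778705-9811661, minus strand) was the only one with 0 Runx3-bound regions. It had 2 intronic H3K4me1-marked regions, 1250 bp at chr2:9789058-9790307 and 1201 bp at chr2:9792005-9793205, centred 22.0 and 19.1 kb downstream of the start. The nearest Runx3-bound region, at chr2:9722977-9723712, was intergenic, overlapped H3K4me1 and lay 88.3 kb downstream of the start, outside the window.

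Satb1 encodes a chromatin organiser of thymocytes and naive T cells. The gene (ENSMUSG00000023927.7, chr17:51875512-51972615, minus strand) had 3 Runx3-bound regions, all in the gene body. The first lay 0.185 kb downstream of the start over a UTR or non-coding exon, at chr17:51972153-51972707, and was unmarked. Its central 200 bp had a GC content of 79.5%, the highest of all 52 regions. The region at 18.8 kb, chr17:51953501-51954183, was the widest of the 3 at 683 bp. It was unmarked and lay 1038 bp from the widest H3K4me1-marked region of the window, 4235 bp at chr17:51955221-51959455, which held no Runx3-bound region. Only the region at 27.9 kb, over a coding exon at chr17:51944506-51944999, overlapped H3K4me1. Of the 7 H3K4me1-marked regions 1 held Runx3.

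Bcl11b encodes a zinc finger factor that maintains T cell identity. The gene (ENSMUSG00000048251.9, chr12:109148613-109241812, minus strand) had 5 Runx3-bound regions and 15 H3K4me1-marked regions, all 15 in the gene body. The region 0.590 kb upstream of the start, at chr12:109242238-109242567, and the one 10.4 kb downstream were unmarked. Those at 38.8, 77.2 and 78.7 kb downstream were marked. The widest, 631 bp at chr12:109202668-109203298, was the one with 4 RUNX words. The widest H3K4me1-marked region of all 105, 7885 bp at chr12:109156534-109164418, lay near the end of Bcl11b and held 2 Runx3-bound regions.

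**Figure D2:**
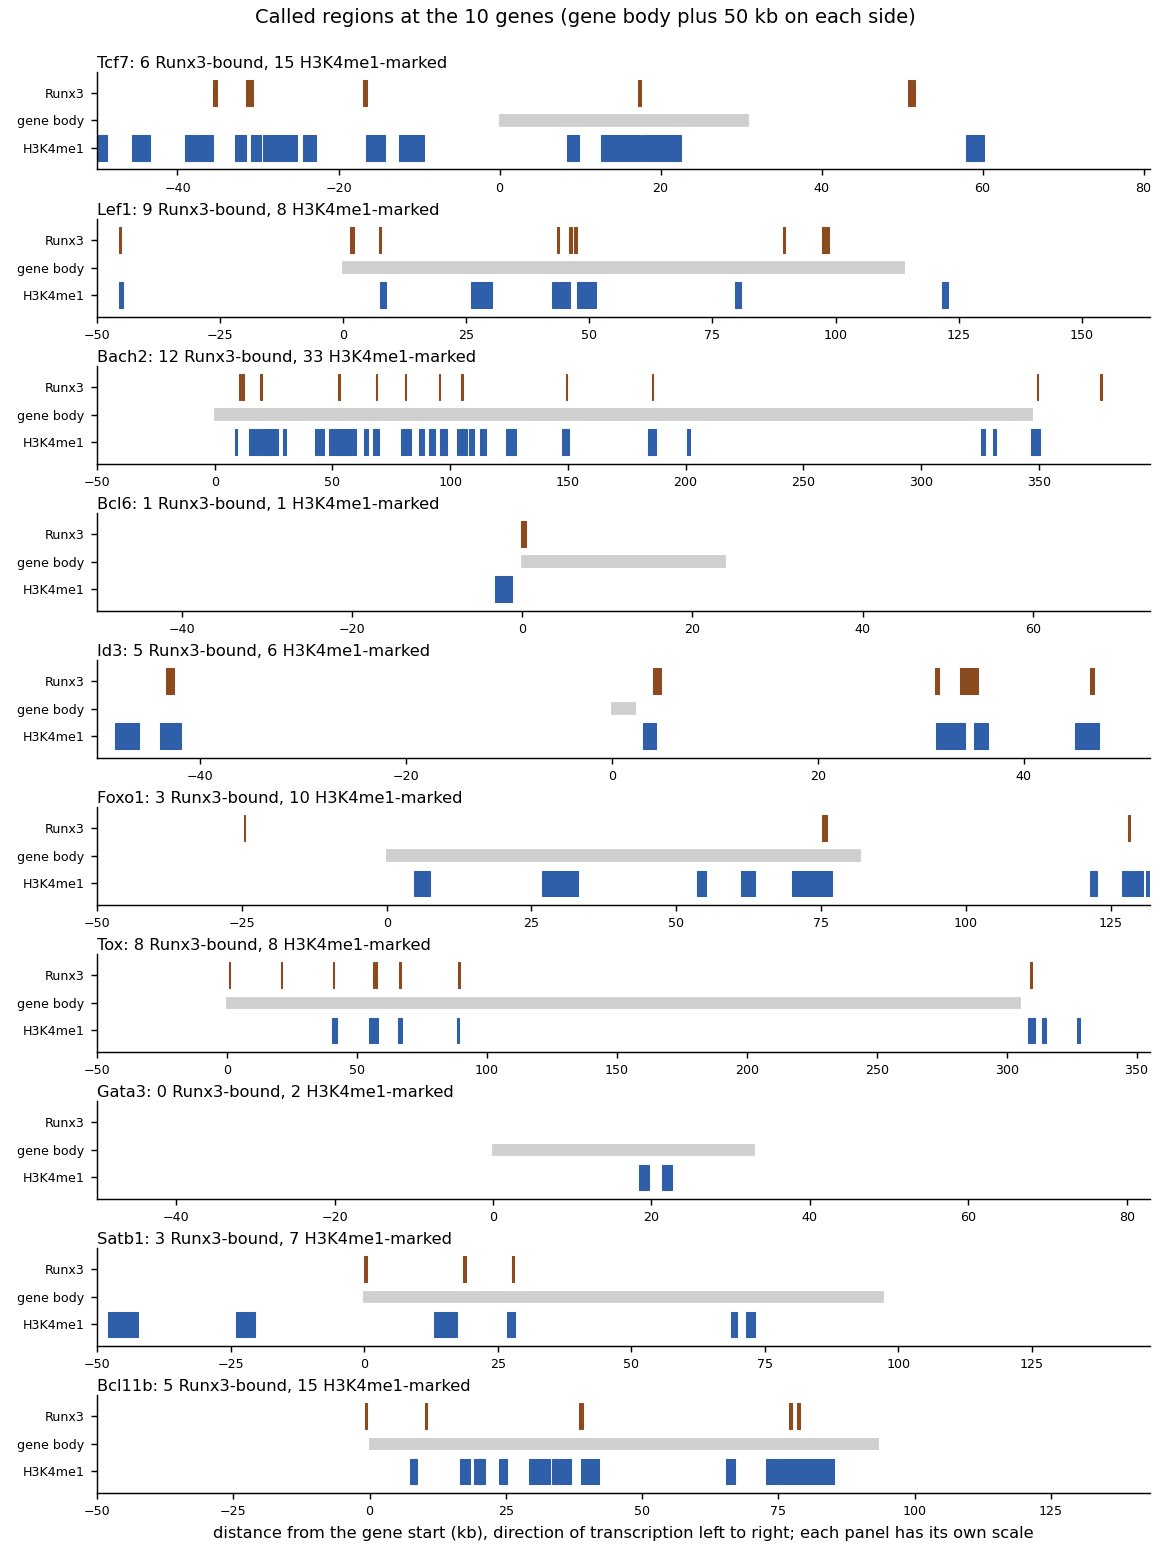
Maps of the 10 genes with distance from the gene start in kb on the x axis, drawn in the direction of transcription, each on its own scale and with narrow regions drawn at a minimum line width; brown boxes are Runx3-bound regions, grey bars gene bodies and blue boxes H3K4me1-marked regions. H3K4me1-marked regions lie mainly upstream of Tcf7 and inside Bach2 and Bcl11b, while Gata3 has 0 Runx3-bound regions and Bcl6 has 1 of each kind.

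The Runx3-bound regions lay mainly in the gene bodies. Of the 52 regions 33 were intronic, 11 intergenic, 4 in UTR or non-coding exons, 3 in coding exons and 1 in a non-coding gene. Gene bodies, 1128 kb in all, had 3.10 Runx3-bound regions per 100 kb, and the flanks, 1000 kb in all, had 1.70. For H3K4me1 the densities were 6.47 and 3.20 per 100 kb, and 71 of the 105 regions were intronic. Much of the body length was that of Bach2, 347 kb, and Tox, 305 kb. These places and densities were not computed over all regions or genes. Whether they are particular to the 10 genes is therefore not known. For 31 of the 52 Runx3-bound regions the nearest protein-coding start was that of the listed gene, and 22 of the 31 were marked. For the other 21, of which 12 were marked, another gene was nearer. Regions were thus placed at a gene by position only.

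H3K4me1 overlapped 34 of the 52 Runx3-bound regions, or 65.4% (51.8% to 76.8%), against 57.3% of all Runx3-bound regions, a value inside the interval. When the centre of the Runx3-bound region had to be marked, the share was 46.2% against 46.3% over all. Thus by both definitions the 52 regions were close to the list as a whole. At 7 of the 52 (13.5%, 6.68% to 25.3%) the region touched 2 H3K4me1-marked regions on either side of a gap of 31 to 795 bp, against 7.53% of all Runx3-bound regions that touched more than 1. These lay at Bach2, with 2, and at Tcf7, Id3, Foxo1, Tox and Bcl11b, with 1 each. Seen from the mark, 38 of the 105 H3K4me1-marked regions held a Runx3-bound region, or 36.2% (27.6% to 45.7%), against 29.2% of all. Marked regions with Runx3 had a median width of 2047 bp and those without 1610 bp, compared with 1904 and 1496 bp over the whole list.

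The marked share was lowest next to transcript starts, as in the list as a whole. Under 1 kb from a start there were 8 of the 52 Runx3-bound regions (15.4%, 8.01% to 27.5%, against 26.3% of all). Of the 8 regions 0 were marked, which leaves an upper Wilson limit of 32.4%, against 19.97% of all such regions. By gene, 5 lay at starts of listed genes, Lef1, Bcl6, Tox, Satb1 and Bcl11b, 2 at Skp1a and 1 at Casp8ap2. From 1 to 5 kb, 5 of 8 regions were marked, or 62.5%, against 65.2% of all. From 5 to 50 kb 18 of 21 were marked, or 85.7% (65.4% to 95.0%, against 72.9% of all). At 50 kb or more there were 15 regions, or 28.8% (18.3% to 42.3%), against 11.0% of all Runx3-bound regions. Of the 15, 11 were marked, or 73.3%, against 69.9% of all such regions. These 15 lay at Bach2, Tox, Lef1, Foxo1 and Bcl11b, genes with bodies of 81.8 to 347 kb. Of the 36 regions over 5 kb from a start, 29 were marked, or 80.6% (65.0% to 90.2%, against 72.3% of all).

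**Figure D3:**
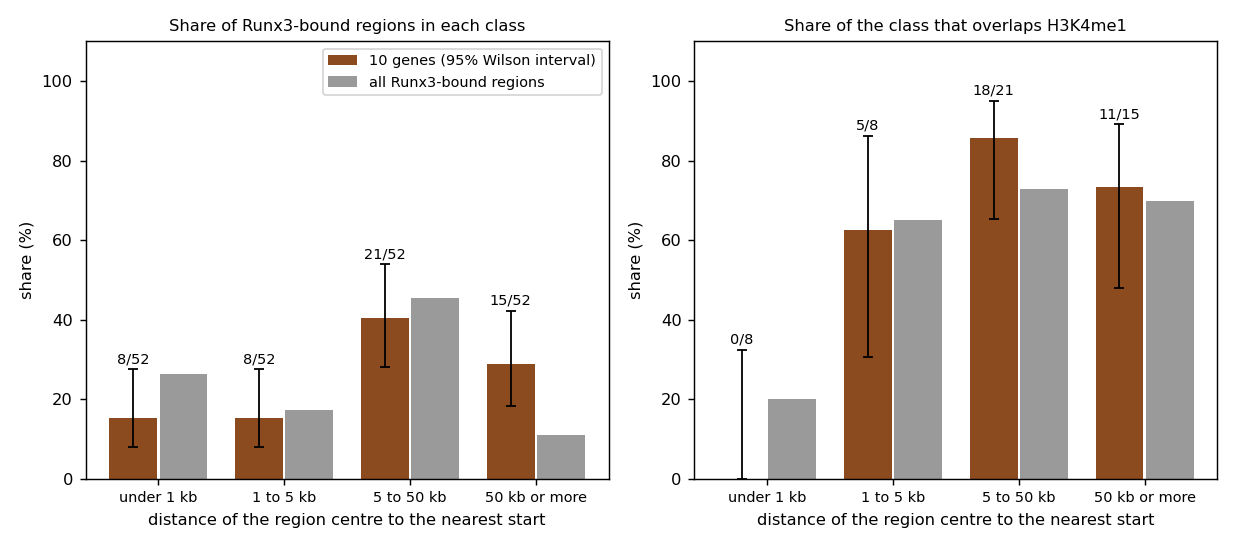
Share of Runx3-bound regions (%) in each class of distance to the nearest transcript start (left) and share of each class that overlaps H3K4me1 (right), for the 52 regions at the 10 genes (brown, bars with 95% Wilson intervals and counts) and all 9135 regions (grey). Under 1 kb 0 of 8 regions at the 10 genes overlap H3K4me1, and at 5 to 50 kb 18 of 21 do.

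At Bcl6, Tox, Satb1 and Bcl11b, 4 of the 10 genes, there was a Runx3-bound region that overlapped the 1 kb on either side of the gene start, against 9.43% of protein-coding genes. Of the 10 genes 0 had an H3K4me1-marked region overlapping this stretch, against 8.26% of protein-coding genes. The 8 regions under 1 kb had a median GC content of 59% and a median of 17.5 CpG in their central 200 bp, and the 36 over 5 kb had 50% and 3.5 CpG. Over all Runx3-bound regions these medians were 60% and 13 CpG under 1 kb and 48.5% and 2 CpG over 5 kb.

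The 18 unmarked regions were not all near a start, nor all far from the mark. Of the 18, 8 lay under 1 kb from a start, 3 at 1 to 5 kb and 7 farther away. Their distance to the nearest H3K4me1-marked region ranged from 214 bp, for an intronic region of Bach2 95.5 kb from the start, to 39.3 kb at Tox, with a median of 7.29 kb. Of the 18, 2 were within 1 kb of the mark and 6 within 5 kb.

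Runx3-bound regions occurred in groups. At the 10 genes 27 of the 52 (51.9%, 38.7% to 64.9%) had another Runx3-bound region centred within 10 kb, against 33.5% of all Runx3-bound regions. All 9 of Lef1, 5 of Bach2, 4 of Tcf7, 3 of Tox and 2 each of Id3, Satb1 and Bcl11b were of this kind. Foxo1 and Bcl6 had none. Neighbours count each other, so the interval, which treats regions as independent, is too narrow. The 2 of Id3 lay in E2f2, and 2 of the 4 of Tcf7 lay at Skp1a. The windows also had a median of 2.28 Runx3-bound regions per 100 kb, against a mean of 0.775 over all protein-coding genes. The part of this density in the share was not tested. The genes themselves were chosen with earlier results of these data known, so these shares describe the 10 genes and no more.

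RUNX words were present in the central 200 bp of 43 of the 52 regions, or 82.7% (70.3% to 90.6%), against 78.7% of all Runx3-bound regions. In the whole region 49 of the 52 held one, or 94.2%, against 92.6% of all Runx3-bound regions. The exceptions were the regions of Lef1 at 89.6 kb, of Bcl6 at 0.163 kb and of Tox at 21.0 kb, all unmarked. The central windows held 73 RUNX words in all, of which Bach2 had 18, Lef1 12, Tcf7 11, Tox 10, Id3 8, Bcl11b 7, Satb1 5, Foxo1 2 and Bcl6 0. The form TGTGGT was found in 53.8% of regions, TGTGGC in 34.6%, TGCGGT in 15.4% and TGCGGC in 9.62%, against 54.3%, 26.8%, 13.7% and 8.41% of all Runx3-bound regions. At least 2 RUNX words were present in 19 of the 52 (36.5%, 24.8% to 50.1%, against 37.1% of all). Of the 34 marked regions 30 had a RUNX word in the central window, and of the 18 unmarked 13. This split was not set beside that of all Runx3-bound regions, so no link between the words and the mark can be read from it.

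ETS words (AGGAAA and AGGAAG, as well as CGGAAA and CGGAAG), the letters bound by factors such as Ets1, were found in 37 of the 52 (71.2%, 57.7% to 81.7%, against 66.1% of all). AP-1 words (TGACTCA and TGAGTCA) were found in 3 (5.77%, 1.98% to 15.6%, against 6.49%). These lay at Tcf7 16.7 kb upstream, Bach2 at 11.9 kb and Bcl11b at 38.8 kb. Words of the TCF/LEF, GATA and forkhead families, to which Tcf7, Lef1, Gata3 and Foxo1 belong, were also searched. TCF/LEF words (CTTTGAT and CTTTGTT) were found in 8 of the 52 (15.4%, 8.01% to 27.5%, against 8.46% of all), of which 2 lay at Tox and 1 each at Tcf7, Lef1, Bach2, Id3, Satb1 and Bcl11b. GATA words (AGATAA and TGATAA) were found in 8 of the 52 (15.4% against 13.7% of all), and forkhead words (GTAAACA and ATAAACA) in 4 (7.69%, 3.03% to 18.2%, against 5.15%). The 4 forkhead matches lay at Tcf7 17.4 kb downstream, at Lef1 89.6 kb downstream and at Bach2 52.7 and 95.5 kb downstream. For each family with an interval given, the share over all Runx3-bound regions lay within it, near the lower limit for TCF/LEF. All words were searched on both strands, and matches of different families may overlap. A match gives letters in a window and does not show that the factor was bound.

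**Figure D4:**
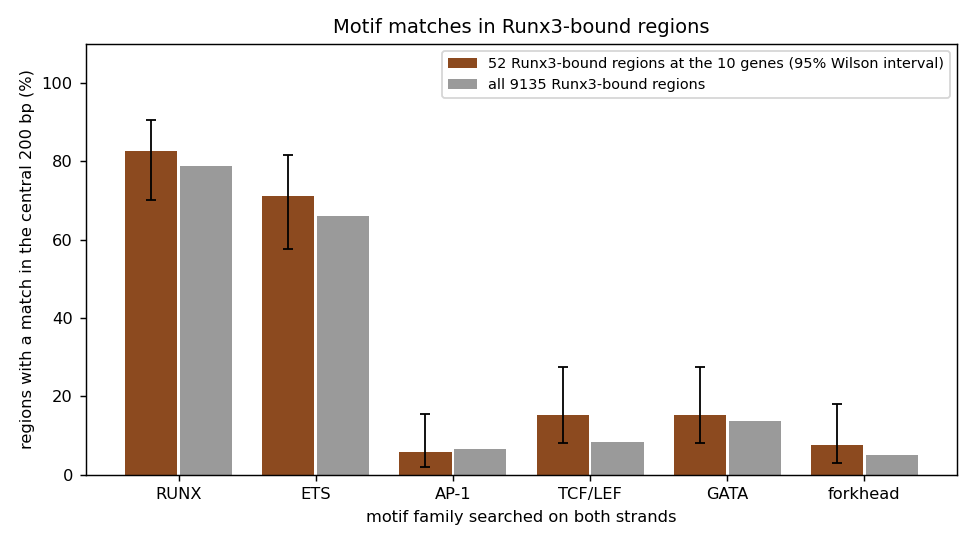
Share of Runx3-bound regions (%) with at least 1 match of each motif family in the central 200 bp, searched on both strands, for the 52 regions at the 10 genes (brown, with 95% Wilson intervals) and for all 9135 (grey). RUNX reaches 82.7% and 78.7%, ETS 71.2% and 66.1%, and the other families stay under 16% in both.

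The promoter windows of the genes, 250 bp before to 50 bp after the gene start, held a RUNX word at Tcf7, Bach2, Id3 and Gata3, that is in 4 of 10 against 45.3% of protein-coding genes. These were not the 4 genes with a Runx3-bound region at the start. The share of all protein-coding genes with both was not computed. With 4 genes of each kind among 10, no link between the promoter word and the called region can be read from this. The called regions at the start did hold RUNX words over their whole length at Satb1 and Bcl11b, with 2 each, and at Tox, with 1. Only the Bcl6 region held 0.

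Another 2 gene lists were described in the same way. The first held 19 paralogs of the 10 genes, such as Tcf7l1, Bach1, Foxo3 and Gata2. Of these 10 had a Runx3-bound region in their window, against 47.9% of protein-coding genes, and 7 a marked one, against 28.0%. Neither Runx3 nor H3K4me1 was called at 8 of the 19, against 8963 of the 22350 protein-coding genes. By these counts the paralogs were close to protein-coding genes as a whole. The median density was 0.343 per 100 kb and the median H3K4me1 cover 0%, against 0 and 0.656% over all protein-coding genes. The paralogs Bcl11a, Foxo6, Gata1, Gata2, Gata4, Gata6, Id4 and Tox3 had 0 regions of both kinds, whereas Tox2 had 3 Runx3-bound regions (2 marked), Tcf7l1 3 (1 marked) and Foxo3 2 (both marked). Id2, which encodes the effector counterpart of Id3, had 0 Runx3-bound regions and 1 H3K4me1-marked region. Like Gata1, Gata2, Gata4 and Gata6, Gata3 had 0 Runx3-bound regions, but unlike them it had marked ones, whereas Gata5 had 2 Runx3-bound regions.

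The second list held 19 other genes of naive and memory T cells. All 19 had a Runx3-bound and an H3K4me1-marked region, against 47.9% and 52.3% of protein-coding genes. A marked Runx3-bound region was present at 16, against 28.0%. In total they held 73 Runx3-bound and 160 H3K4me1-marked regions, with medians of 2.42 Runx3-bound regions per 100 kb and 9.38% H3K4me1 cover, near the medians of the 10 transcription factor genes. Ccr7, the lymph node homing receptor, had 10 Runx3-bound regions (7 marked) and 9.02 per 100 kb, and Klf2, a factor of quiescence and homing, had 8 (all marked) and 7.80 per 100 kb. Il7r, the receptor subunit for survival signals by IL-7, had 3 (2 marked). The 3 genes without a marked Runx3-bound region were Tcf3, Themis and Zeb1. Windows of neighbouring genes can hold the same region, and both lists were chosen with results of these data known.

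**Figure D5:**
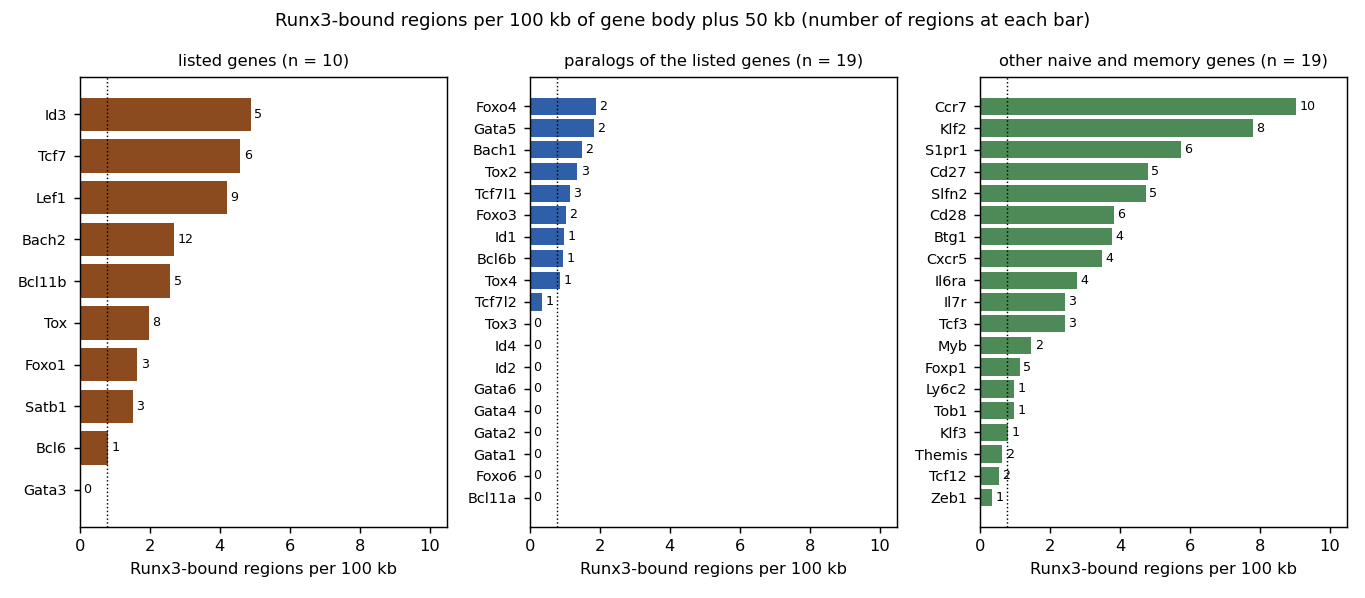
Runx3-bound regions per 100 kb of gene body plus 50 kb for the 10 genes (left), 19 paralogs (middle) and 19 other naive and memory T cell genes (right), with the number of regions at each bar and a dotted line at the mean of all protein-coding genes, 0.775. Of the 10 genes 9 lie above the line and Gata3 at 0, and 9 of the 19 paralogs lie at 0.

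The labelled cell type was checked in the H3K4me1 list. Of 8 T cell marker genes 6 had an H3K4me1-marked region in the gene body, Cd2, Lck, Cd8b1, Cd3d, Cd3e and Cd3g, and Cd8a and Cd5 had none there. Of 5 B cell markers 1 did (Pax5), of 4 myeloid markers 1 (Itgam) and of 3 NK cell markers 1 (Klrb1c). The share of all protein-coding genes with a marked region in the body is not given. These few counts therefore have no background and do not establish the cell type. The part of other cells in the regions at the 10 genes was not tested.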

How the data were processed

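The authors aligned ChIP-seq reads of 40 to 42 bases to mm9 with ELAND, kept unique reads, joined the repeats of each antibody and called peaks with MACS against NIS, with the larger read set scaled to the smaller. The deposited values were peak positions in bp (start and end), and no other measurement. Joining leaves no replicate spread, and regions in repeated sequence may be missed. Sequence was NCBIM37 (mm9), coordinates count from 1, and the gene start is the outermost 5′ end of the gene. Distances run from region centres, to any annotated transcript start unless the gene start is named. Overlap required at least 1 bp. A region was placed upstream, in the body or downstream by its centre. Shares were set beside those of all 9135 or 18992 regions or 22350 protein-coding genes. No test was made, since each antibody has 1 list.

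The 10 genes, the motif words and both further gene lists were chosen with earlier results of these data known. From each further list 1 gene is not reported here and was left out of all counts over it. For each gene the text names the Runx3-bound region nearest to its start and the widest region of each list. Other regions named were chosen after their values were seen. Alternatives were other margins, overlap rules, merged regions, regulatory domains, motif windows, a single start per gene, wide regions and leaving out each gene. The counting functions were tested on simulated data. Scripts ran under Python 3.11.15 with matplotlib 3.10.9 for figures, pandas 2.3.3 and NumPy 2.4.6 for tables, and SciPy 1.17.1 for intervals.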

Additional observations from a re-analysis of the deposited data

How the results depend on the processing

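Of 37 alternatives for 5 results, 33 left the value within its interval or within 1.5 times the count, and 4 moved it. Leaving out 1 gene made up 9 of the alternatives for the marked share and 9 for the RUNX share, and such sets keep most of the regions. Regulatory domains gave 66 Runx3-bound regions, but 31 of these were not among the 52. A count within the limit thus need not mean the same regions. The share of Runx3-bound regions at the 10 genes that overlapped H3K4me1 was 46.2% when their centre had to be marked, against 65.4%. Over all Runx3-bound regions these shares were 46.3% and 57.3%. The share with a RUNX word was 94.2% over the whole region and 61.5% in the central 100 bp, against 82.7%. Over all Runx3-bound regions it was 92.6%, 54.2% and 78.7%. The share over 5 kb from a start was 80.8% with 1 start per protein-coding gene, against 69.2%. Over all Runx3-bound regions it was 69.0% and 56.4%, so these definitions moved the list as a whole too. Margins of 10 and 100 kb gave 39 and 59 Runx3-bound regions in place of 52. Leaving out each gene with Runx3-bound regions in turn gave marked shares of 61.7% to 67.4% and RUNX shares of 77.5% to 86.0%.

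No paired analysis was possible because the reads of the numbered Runx3 and NIS libraries were joined before regions were called. Leaving out a library and a stricter peak threshold were not run, since the lists hold joined reads without scores. The lists give no depth per region, and a gene with 0 regions had none called at the depth of these libraries.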

Other observations

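Beyond the windows, Runx3-bound regions were also assigned by regulatory domains, in which each gene has a basal domain, from 5 kb before its start to 1 kb after it, that is extended to the neighbouring basal domains by at most 1 Mb. The domains of the 10 genes held 66 Runx3-bound regions, of which 31 lay outside the windows described above. Of the 31, 25 overlapped H3K4me1. The mark overlapped 57.3% of all Runx3-bound regions and 72.3% of all those over 5 kb from a start. Regions far from starts were thus commonly marked in the whole list. The domains did not hold every region of the windows. They left out the regions of the Tcf7 window at Skp1a, those of the Id3 window in E2f2 and all 12 of the Bach2 window. Bcl6, with only 1 unmarked region in its window, had 5 more at 162 to 234 kb upstream of its start, 4 of them marked. Foxo1 had 5 at 190 to 304 kb downstream, all marked, and Satb1 had 5 at 316 to 636 kb upstream, 4 of them marked. Tox had 5 at 161 to 764 kb upstream, of which 2 were marked, and Lef1 5 at 53.1 to 216 kb upstream, of which 4 were marked. Bach2 had 3 at 90.0 to 138 kb upstream, all marked, and no others in its domain, which reaches only 1 kb into the gene. Tcf7, Id3 and Bcl11b had 1 each, all marked, at 58.1 kb upstream, 54.6 kb upstream and 269 kb downstream. The domain of Gata3, 159 kb long, held 0 regions of both lists, but it reaches only 1 kb into the gene and so leaves out the 2 H3K4me1-marked regions in its introns. These distal regions were assigned by position alone, and no value here tells on which gene they act.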
